A study of Mus musculus with 40 samples.

Results

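The effect of anti-PD-1 monotherapy on the transcriptome of 66cl4 primary tumors was examined in 10 tumors out of the 39 in the table, namely all 5 from mice treated with anti-PD-1 and all 5 from untreated mice of the same model, over all 14318 genes. 66cl4 is a mammary carcinoma cell line of BALB/c origin that is used as a model of triple-negative breast cancer. Luciferase-expressing 66cl4 cells were inoculated through the teat canal into the mammary ducts of wild-type lactating BALB/c females, so that both groups share the strain, the host, the cell line and its route. Treated mice received 200 µg of anti-PD-1 (clone RMP1-14 in a mouse IgG1 format) by weekly i.p. injection until 5 w p.i., and the labels name no control antibody for the untreated mice. Dosing started at 3 w p.i. Neither group received chitin. Tumors were removed at 5 w p.i., and each library was made from 1 tumor. The females had been mated at an age of 8 w, and glands of a pair were inoculated, so that 1 mouse could bear a tumor on each side. The labels do not tie tumors to mice, and p-values therefore measure the spread between tumors.

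PD-1 is an inhibitory receptor on activated T-cells. Its ligands PD-L1 and PD-L2 are carried by tumor cells, macrophages and dendritic cells, and antibodies that occupy PD-1 release T-cells from this brake. Released T-cells secrete interferon gamma, which acts on surrounding cells, where it switches on chemokines such as CXCL9 and CXCL10, guanylate-binding proteins, and the genes that load and present peptides on MHC molecules.

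Transcripts of epithelial and mesenchymal cells were present in every tumor, but host tissue holds such cells too, so that they do not check the cell line. Krt8, a keratin of luminal epithelium, had normalized counts from 3152 to 4928 over the 10 tumors, and Vim, the intermediate filament of mesenchymal cells, from 18358 to 27751. Epcam, an epithelial adhesion molecule, was low, with at most 71.0 normalized counts. Depth lay between 5732583 and 8408913 recovered reads per tumor and did not differ between the groups beyond their spread (two-sided exact permutation test of the means, p = 0.833). The antibody binds a protein, so that the Pdcd1 transcript, which encodes PD-1, does not check the labels. Tumors were sequenced as bulk tissue, in which fewer cells of a type and less RNA per cell cannot be told apart.

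On the deposited log2-like scale, untreated and anti-PD-1-treated 66cl4 tumors had closely similar transcriptomes. Most interferon gamma and MHC genes lay slightly higher in treated tumors, none of them beyond the test. No gene passed the threshold of an adjusted p of 0.05 in limma with Benjamini-Hochberg adjustment (0% of 14318 genes), and the smallest adjusted p was 0.895. At an unadjusted p under 0.05 stood 767 genes (5.36%), of which 401 were higher in anti-PD-1 tumors (2.8% of genes) and 366 lower (2.56%). The 5 tumors of one group all lay above the 5 of the other for 48 genes in the higher direction (0.335%) and 45 genes in the lower direction (0.314%). Values below are normalized counts, i.e. reads scaled by each tumor's size factor, and VST differences, i.e. the mean deposited log2-like value of the 5 anti-PD-1 tumors minus that of the 5 untreated tumors, given with the SE of the limma fit. The VST difference was above 0 for 51.1% of genes, and its median over all genes was 0.0020. Because the transformation compresses low counts, a VST difference understates the ratio of counts of weakly expressed genes.

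The data also bound, on the VST scale, the size of what could have been missed. For weakly expressed genes these bounds say little about the ratio of counts. Cd8b1, with a VST difference of 0.16, had mean normalized counts of 5.95 in untreated and 12.2 in anti-PD-1 tumors. The 95% confidence interval of the VST difference stayed within 0.5 of 0 for 95.1% of genes and within 1 for 99.3%, with a median SE of 0.071. For no gene did the difference itself exceed 1. It exceeded 0.5 in size for 52 genes, 34 of them higher and 18 lower in anti-PD-1 tumors.

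The genes of this and the next paragraph were chosen by their small p, so that little overlap between the groups comes with that choice. Among the genes with the smallest p in the higher direction, Adgre1 came first. It encodes F4/80, an adhesion receptor that marks mouse macrophages, and lies at chr17:57358581-57483529 in mm10. Its normalized counts were 1265, 1568, 1154, 1417 and 1337 in untreated tumors 1 to 5 and 1706, 2049, 1934, 1822 and 2387 in anti-PD-1 tumors 1 to 5. All 5 treated tumors lay above all 5 untreated ones, with a VST difference of 0.51 ± 0.12, unadjusted p = 0.000283, which did not pass the adjustment over all genes. The same order without overlap held for Pex11a, a factor of peroxisome division, for the transcription factor Sp4, for Mxd1, a partner of MAX that antagonises MYC, and for Ptpro, a receptor tyrosine phosphatase. Their VST differences were 0.22 ± 0.054 (Pex11a), 0.20 ± 0.051 (Sp4), 0.24 ± 0.065 (Mxd1) and 0.25 ± 0.073 (Ptpro). Far1, which makes the fatty alcohols of ether lipids in peroxisomes, had normalized counts of 812, 782, 908, 827 and 775 in untreated tumors 1 to 5 and 1089.8, 936, 1095, 1484 and 893 in anti-PD-1 tumors 1 to 5. Here 4 of 5 treated tumors lay above the highest untreated tumor, and the same held for Hgsnat (VST difference 0.43 ± 0.11), a lysosomal enzyme of heparan sulfate breakdown, for the leukocyte receptor Lilra6 (0.28 ± 0.076), for Enpp2 (0.30 ± 0.083), the secreted enzyme autotaxin, and for 1700028K03Rik (0.23 ± 0.065).

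In the lower direction, the gene with the smallest p of the whole comparison was Zfp345, a zinc finger gene at chr2:150470991-150485063 in mm10. Its normalized counts were 65.1, 61.9, 67.7, 73.4 and 73.4 in untreated tumors 1 to 5 and 50.1, 48.3, 46.3, 43.8 and 45.3 in anti-PD-1 tumors 1 to 5. The groups did not overlap, and the VST difference was -0.23 ± 0.046, unadjusted p = 7.77e-05. Plat, which encodes tissue plasminogen activator, had normalized counts of 369, 323, 223, 263 and 432 in untreated tumors 1 to 5 and 211, 233, 198, 126 and 174 in anti-PD-1 tumors 1 to 5. The VST difference of Plat, -0.53 ± 0.13, was the largest in size among these genes, although anti-PD-1 tumor 2 lay above untreated tumor 3. Non-overlapping groups with smaller differences were found for the adaptor Sh2d5 (-0.27 ± 0.062), for Sap30 (-0.18 ± 0.047), a subunit of the Sin3 corepressor complex, for the prefoldin subunit Pfdn2 (-0.23 ± 0.059), for Aimp1 (-0.19 ± 0.051), a scaffold of the tRNA synthetase complex, for Gpx8 (-0.20 ± 0.056), a peroxidase of the endoplasmic reticulum, and for the heat shock factor Hsf2 (-0.17 ± 0.046). Gm13285 (-0.25 ± 0.066) and the histone deacetylase Hdac2 (-0.18 ± 0.049) had 4 of 5 treated tumors below the lowest untreated tumor. Zfp345, Gm13285 and Lilra6 belong to families of closely similar genes, so that their counts are uncertain.

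**Figure D1:**
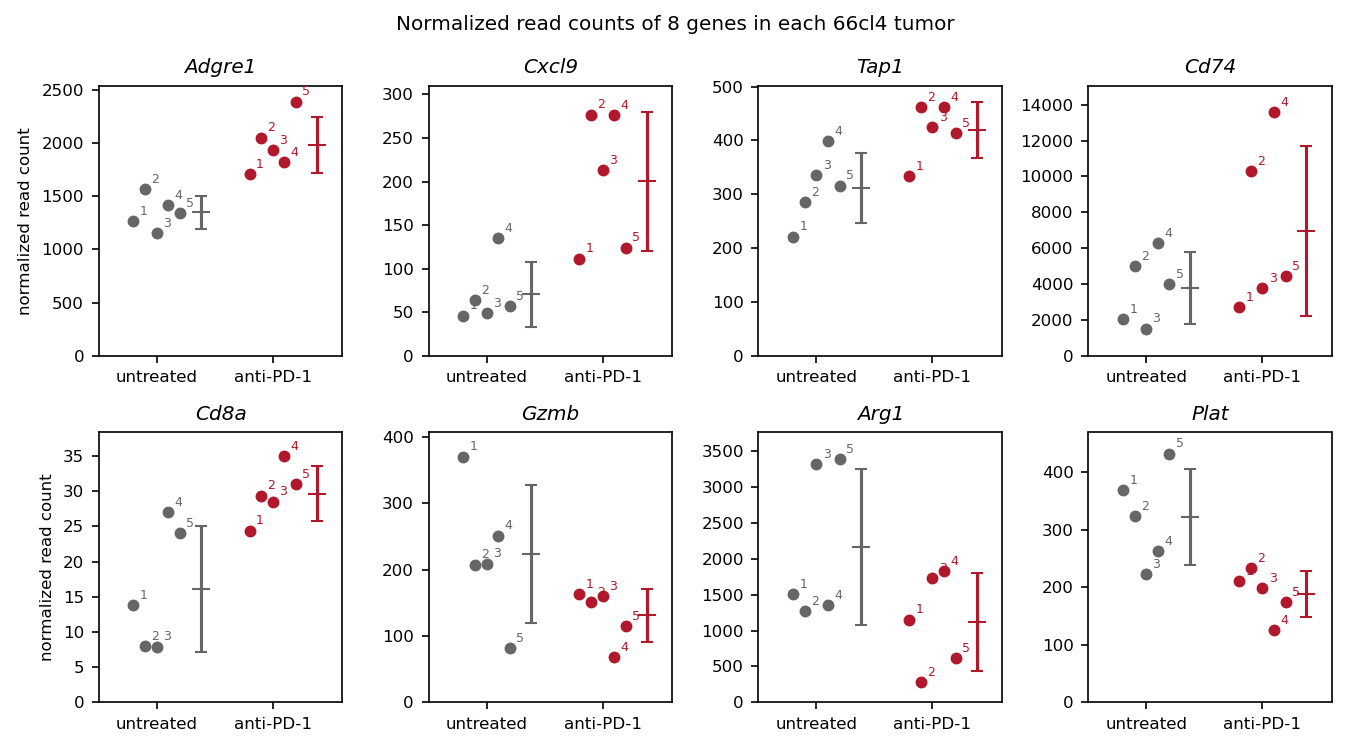
Normalized read counts (linear axes from 0) of Adgre1, Cxcl9, Tap1, Cd74, Cd8a, Gzmb, Arg1 and Plat in the 5 untreated (grey) and 5 anti-PD-1 (red) 66cl4 tumors; points are tumors labelled by their number, and bars show the mean and SD (n = 5). Only Adgre1 separates the groups fully, with treated tumors from 1706 to 2387 and untreated tumors from 1154 to 1568.

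Genes that interferon gamma induces were examined next. The median VST difference of 24 listed genes in the table was 0.26, against 0.0020 over all genes. It was 0.20 to 0.36 when each tumor was left out in turn and 0.26 to 0.45 under other settings. Of these 24 genes, 23 had a VST difference above 0 and 1 below, against 51.1% of all genes above 0. None passed the adjusted threshold, and none separated the groups without overlap. At an unadjusted p under 0.05 stood 1 gene (4.17% of the list), no larger a share than the 5.36% of all genes. That gene was Cxcl9, the chemokine that attracts CXCR3-bearing T-cells, with normalized counts of 46.3, 64.2, 49.2, 135 and 57.4 in untreated tumors 1 to 5 and 112, 277, 213, 276 and 124 in anti-PD-1 tumors 1 to 5. Anti-PD-1 tumors 2, 3 and 4 lay above every untreated tumor, while tumors 1 and 5 lay below untreated tumor 4. The mean was 70.5 ± 36.9 in untreated and 200.3 ± 79.7 in anti-PD-1 tumors (SD, n = 5 tumors each), and the VST difference was 0.83 ± 0.37, unadjusted p = 0.035, with a 95% confidence interval from 0.064 to 1.59. For Cxcl10, which binds the same receptor, counts were 23.8, 32.1, 47.5, 61.8 and 38.7 in untreated tumors 1 to 5 and 60.3, 89.99, 84.4, 48.8 and 51.3 in anti-PD-1 tumors 1 to 5. Its VST difference was 0.29 ± 0.15. The GTPase Gbp2 had a VST difference of 0.22 ± 0.17, with overlapping groups. The member below 0 was Ido1, which degrades tryptophan, at -0.070 ± 0.081.

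The mean deposited value over the 24 genes was 7.89, 8.01, 8.05, 8.38 and 8.08 in untreated tumors 1 to 5 and 8.12, 8.59, 8.35, 8.49 and 8.21 in anti-PD-1 tumors 1 to 5. Untreated tumor 4 was higher than anti-PD-1 tumors 1, 3 and 5, so that the groups overlapped also over the whole list. Ifng itself was close to the floor. At most 1 read was found in any untreated tumor, and anti-PD-1 tumors 2 to 5 had 3.79, 1.19, 2.50 and 2.39 normalized counts, tumor 1 having none (VST difference 0.18 ± 0.075, unadjusted p = 0.0222). Genes of the type I interferon response showed smaller differences, with 23 of 24 above 0 and a median of 0.089 (0.031 to 0.16 when each tumor was left out). Examples were the antiviral GTPase Mx1 (0.17 ± 0.11), the transcription factor Irf7 (0.24 ± 0.16), Ifit1 (0.11 ± 0.11), the ubiquitin-like Isg15 (0.022 ± 0.14) and, below 0, Bst2 (-0.095 ± 0.13). Isg15 split the treated tumors, since tumors 1, 2 and 3 lay above all untreated tumors and tumors 4 and 5 below all of them, and its difference was below 0 with limma-voom and at equal read depth.

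The promoters of these genes were searched for the letters of known response elements. Windows from 250 bases before to 50 bases after the transcription start, taken from RefSeq (GRCm38.p6, the assembly of mm10), were searched on both strands for GAAANNGAAA, a core of the interferon-stimulated response element, for TTCNNNGAA, the gamma-activated site, and for CCAAT, the letters of the Y box of MHC genes. The searches were independent and matches may overlap. Of 32851 windows in all, 3.44% held the first, 8.3% the second and 37.4% the third. For 14 of the 24 interferon gamma genes the table held 17 windows, of which 64.7% held GAAANNGAAA and 47.1% held TTCNNNGAA. For the MHC class I list, 25% of 16 windows held GAAANNGAAA, and for the MHC class II list 87.5% of 8 windows held CCAAT and 0% held GAAANNGAAA. For the type I interferon list, 57.9% of 19 windows held GAAANNGAAA and 15.8% held TTCNNNGAA. CCAAT was held by 62.5% of MHC class I, 41.2% of interferon gamma and 36.8% of type I interferon windows. The windows of Gbp2, B2m and H2-Aa, of the interferon gamma, MHC class I and MHC class II lists, are shown since each holds a match. They are read 5′ to 3′ on the strand of the gene, with 1 match in capitals and any other left in lower case. They span chr3:142620413-142620712 (plus strand), chr2:122147437-122147736 (plus strand) and chr17:34287774-34288073 (minus strand), and the matches begin 59, 139 and 48 bases before the start. A match describes the letters only.
Gbp2: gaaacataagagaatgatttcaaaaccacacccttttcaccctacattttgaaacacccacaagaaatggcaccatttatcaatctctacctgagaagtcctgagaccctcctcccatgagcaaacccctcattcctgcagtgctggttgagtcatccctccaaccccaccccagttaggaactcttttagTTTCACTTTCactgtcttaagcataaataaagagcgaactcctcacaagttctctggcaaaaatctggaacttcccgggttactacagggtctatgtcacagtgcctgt
B2m: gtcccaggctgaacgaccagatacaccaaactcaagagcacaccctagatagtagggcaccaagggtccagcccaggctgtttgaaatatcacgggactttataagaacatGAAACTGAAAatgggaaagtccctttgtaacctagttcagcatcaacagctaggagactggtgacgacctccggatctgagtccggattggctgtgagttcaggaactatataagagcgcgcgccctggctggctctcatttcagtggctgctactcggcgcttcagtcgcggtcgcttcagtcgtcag
H2-Aa: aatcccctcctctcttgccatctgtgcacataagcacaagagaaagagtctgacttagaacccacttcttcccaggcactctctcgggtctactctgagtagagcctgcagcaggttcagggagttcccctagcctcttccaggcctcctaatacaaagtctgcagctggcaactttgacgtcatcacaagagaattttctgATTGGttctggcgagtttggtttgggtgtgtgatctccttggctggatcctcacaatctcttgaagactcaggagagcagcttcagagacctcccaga

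MHC class I genes lay higher in most treated tumors. Of 16 listed genes of antigen processing and presentation, 15 had a VST difference above 0 and 1 below, with a median of 0.15 (0.087 to 0.20 when each tumor was left out). None passed the adjusted threshold, and 5 stood at an unadjusted p under 0.05 in the higher direction, against 2.8% of all genes. These were Nlrc5, the transactivator of MHC class I genes, the peptide transporter Tap1, the loading factor Tapbp (0.15), and the heavy chains H2-K1 and H2-D1 (0.18), where Tapbp and H2-D1 were named after their values were seen and the similar heavy chains may share reads. Nlrc5 had normalized counts of 51.3, 84.8, 68.6, 139 and 74.7 in untreated tumors 1 to 5 and 125, 159, 115, 159 and 131 in anti-PD-1 tumors 1 to 5. Only untreated tumor 4 reached into the treated range, and the VST difference was 0.41 ± 0.17. Tap1 counts were 222, 285, 335, 399 and 316 in untreated tumors 1 to 5 and 334, 461, 424, 461 and 414 in anti-PD-1 tumors 1 to 5, with 4 of 5 treated tumors above the highest untreated tumor. Its VST difference was 0.33 ± 0.16, that of H2-K1 0.21 ± 0.097, and that of B2m, the light chain shared by all MHC class I molecules, 0.18 ± 0.097. The immunoproteasome subunit Psmb10, the member below 0, had -0.0056 ± 0.097, and was above 0 at equal read depth.

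MHC class II genes had the highest list median and a wide range between tumors. All 9 listed genes had a VST difference above 0, and none stood at an unadjusted p under 0.05. Their median was 0.34 (0.23 to 0.47 when each tumor was left out, 0.28 to 0.83 under other settings). Cd74, the invariant chain that escorts MHC class II molecules, had normalized counts of 2045, 4995, 1525, 6297 and 4000.1 in untreated tumors 1 to 5 and 2705, 10293, 3777, 13594 and 4454 in anti-PD-1 tumors 1 to 5. Anti-PD-1 tumors 2 and 4 exceeded every untreated tumor, whereas tumors 1, 3 and 5 lay inside the untreated range. The VST difference was 0.78 ± 0.54, with a 95% confidence interval from -0.34 to 1.90. The α and β chains put the treated tumors in the same order, with differences of 0.68 ± 0.51 for H2-Aa and 0.68 ± 0.48 for H2-Ab1. H2-Oa, a modulator of peptide loading in B-cells, had the smallest p of the list at a difference of 0.15 ± 0.079 and at most 6.67 normalized counts.

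**Figure D2:**
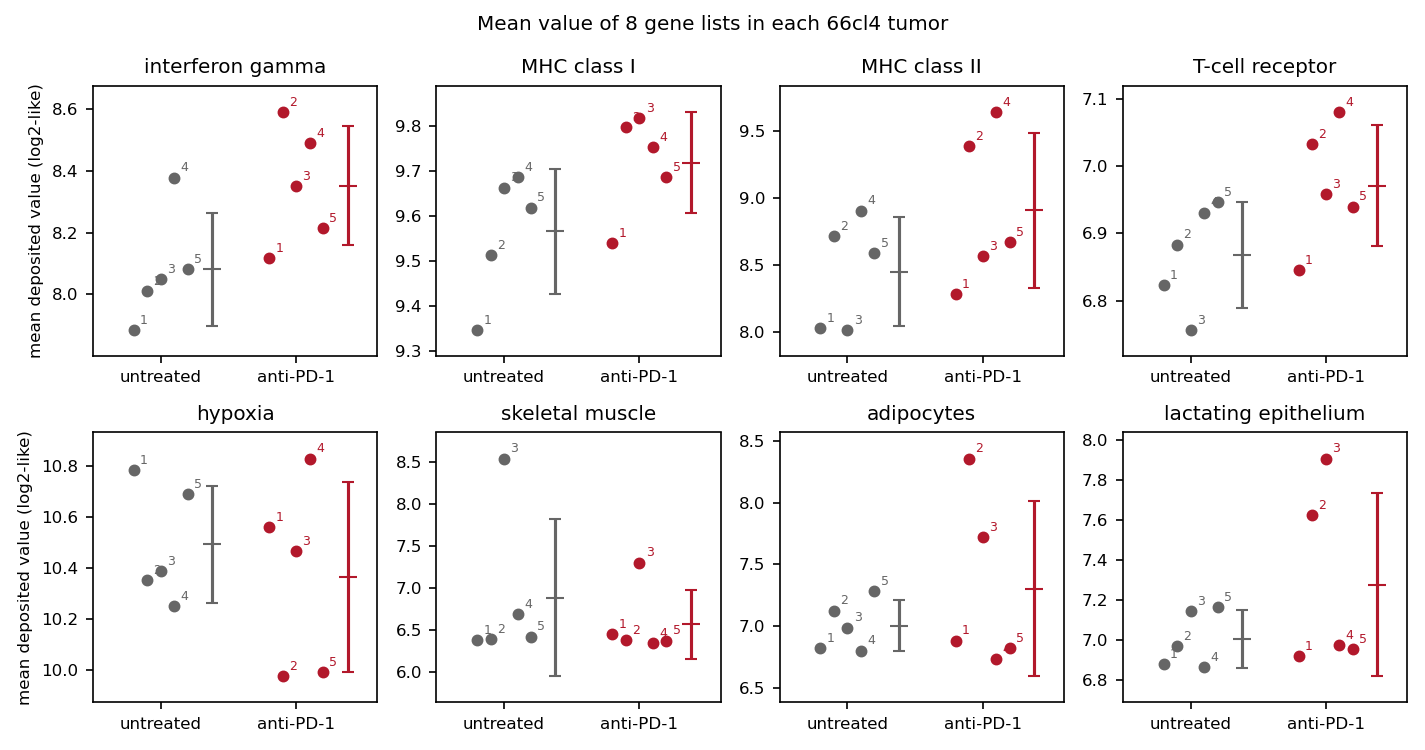
Mean deposited log2-like value of the measured members of 8 gene lists in each untreated (grey) and anti-PD-1 (red) 66cl4 tumor; points are tumors labelled by number, bars are mean and SD (n = 5), and the vertical axes differ between panels and do not start at 0. The groups overlap in every panel, skeletal muscle transcripts are highest in tumor 3 of each group, and adipocyte and lactating epithelium transcripts are highest in anti-PD-1 tumors 2 and 3.

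Transcripts of T-cells had few reads in both groups. Of 17 genes of the T-cell receptor complex and its coreceptors, 16 had a VST difference above 0 and 1 below, with a median of 0.091. None passed the adjusted threshold, and 2 stood at an unadjusted p under 0.05 in the higher direction, against 2.8% of all genes. Cd8a, a chain of the coreceptor of cytotoxic T-cells, had normalized counts of 13.8, 8.02, 7.91, 27.0 and 24.0 in untreated tumors 1 to 5 and 24.4, 29.4, 28.5, 35.0 and 31.0 in anti-PD-1 tumors 1 to 5. Treated tumors 2 to 5 lay above the highest untreated tumor and tumor 1 between untreated tumors 5 and 4. The mean was 16.2 ± 8.95 in untreated and 29.7 ± 3.86 in anti-PD-1 tumors (SD, n = 5 tumors each), and the VST difference 0.26 ± 0.091, unadjusted p = 0.00863. Cd3e, the signalling chain of the receptor, had normalized counts of 12.5, 12.6, 5.28, 21.9 and 22.7 in untreated tumors 1 to 5 and 23.1, 24.6, 32.1, 43.8 and 16.7 in anti-PD-1 tumors 1 to 5, with a VST difference of 0.25 ± 0.095, unadjusted p = 0.016. Cd8b1 (0.16 ± 0.091) and Cd4 (0.23 ± 0.15), the coreceptor of helper T-cells, had wider spread, and anti-PD-1 tumor 4 had the highest Cd4 (76.3) and the lowest Cd8b1 (1.25) normalized count of its group. The member below 0 was Thy1, which fibroblasts carry too, at -0.15 ± 0.14. Since low counts are compressed on the VST scale, the list median was 0.59 with limma-voom on the recovered reads, and it was -0.057 for the 2 members left by a filter on low values.

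Transcripts of the PD-1 axis overlapped between the groups. The list of 16 genes holds inhibitory checkpoints and related genes, among them Cd80, Cd86 and Tox. Of these 16 genes, 15 had a VST difference above 0 and 1 below, with a median of 0.083 that was 0.039 without anti-PD-1 tumor 4. Pdcd1 itself had normalized counts of 17.5, 17.2, 9.67, 20.6 and 40.04 in untreated tumors 1 to 5 and 12.8, 26.5, 27.3, 41.3 and 21.5 in anti-PD-1 tumors 1 to 5. The highest treated tumor (tumor 4) and the highest untreated tumor (tumor 5) were nearly equal, and the VST difference was 0.092 ± 0.10. Cd274, which encodes the ligand PD-L1, had normalized counts of 108, 101, 80.9, 121 and 152 in untreated tumors 1 to 5 and 127, 108, 173, 170.0 and 112 in anti-PD-1 tumors 1 to 5. Its VST difference was 0.17 ± 0.14, and that of Pdcd1lg2, the PD-L2 gene, 0.081 ± 0.073 at 10 or fewer normalized counts per tumor. Entpd1, which encodes the ectonucleotidase CD39, was the 1 member at an unadjusted p under 0.05 (0.21 ± 0.089, unadjusted p = 0.0288). This makes 6.25% of the list, near the 5.36% of all genes. Lag3 (0.084 ± 0.12), Tigit (0.039 ± 0.13), Havcr2 (0.10 ± 0.11) and Ctla4 (-0.028 ± 0.094), further inhibitory receptors, had differences smaller than their SE, and Ctla4, the member below 0, lay above 0 with limma-voom. Of 9 regulatory T-cell and costimulation genes, 5 had a difference above 0 and 4 below. Il2ra, the high-affinity interleukin 2 receptor chain, had normalized counts of 21.3, 11.5, 12.3, 15.5 and 10.7 in untreated tumors 1 to 5 and 24.4, 29.4, 21.4, 20.003 and 21.5 in anti-PD-1 tumors 1 to 5 (0.18 ± 0.060, unadjusted p = 0.006), whereas Foxp3, the transcription factor of regulatory T-cells, had 0.014 ± 0.067, Icos -0.061 ± 0.093 and Tnfrsf9, which encodes the costimulatory receptor 4-1BB, -0.28 ± 0.16.

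Cytotoxic effectors lay on both sides of 0. Of 19 listed genes, 10 had a VST difference above 0 and 9 below, with a median of 0.0071 that was below 0 under quantile normalization and limma-voom. Gzmb, a serine protease of cytotoxic granules, had normalized counts of 370.5, 207, 209, 251 and 81.4 in untreated tumors 1 to 5 and 163, 151, 160.4, 68.8 and 115 in anti-PD-1 tumors 1 to 5. Untreated tumors 1 to 4 lay above all treated tumors, and untreated tumor 5 lay below 4 of them. The VST difference was -0.44 ± 0.20, unadjusted p = 0.0399. The pore-forming Prf1 had normalized counts of 581, 366, 416, 434 and 112 in untreated tumors 1 to 5 and 291, 187, 225, 88.8 and 284 in anti-PD-1 tumors 1 to 5, with the same low untreated tumor 5 and a difference of -0.55 ± 0.28. Granzymes C to G, named after their values were seen, also had untreated tumors 1 to 4 above all treated tumors, and VST differences of -0.66 ± 0.29 (Gzmc), -0.80 ± 0.43 (Gzmd), -0.67 ± 0.32 (Gzme), -0.92 ± 0.45 (Gzmf) and -0.85 ± 0.46 (Gzmg). Near-identical sequences among these granzyme genes mean that their counts may not be independent of each other. Nkg7, a granule membrane protein, had 0.022 ± 0.092. The other granzymes of the list, Gzma (0.089) and Gzmk (0.038), also given after their values were seen, lay above 0. The treated tumor with the most Cd8a (tumor 4) had the lowest Gzmb and Prf1, but also the lowest Cd8b1 of its group. This was noted in 1 tumor after the values were seen and was not tested.

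Macrophage genes other than Adgre1 overlapped between the groups. Of 20 listed genes of macrophages and monocytes, 15 had a VST difference above 0 and 5 below, with a median of 0.12. Adgre1 alone of them separated the groups (0.335% of all genes did so in this direction), and 2 members stood at an unadjusted p under 0.05 in the higher direction (Adgre1 and Ms4a7, the latter named after its value was seen) and 1 in the lower, against 2.8% and 2.56% of all genes. Csf1r, the receptor that macrophages depend on, had normalized counts of 3345, 5355, 4760.4, 6935 and 5414 in untreated tumors 1 to 5 and 3999, 6182, 4689, 6852 and 7177 in anti-PD-1 tumors 1 to 5 and a difference of 0.16 ± 0.16. The scavenger receptor Cd163 (-0.022 ± 0.16) and the integrin Itgam (0.072 ± 0.16), shared by macrophages and neutrophils, were close to 0 and changed sign without single tumors. Arg1, an arginase of alternatively activated macrophages, had the lowest difference of the list, -0.98 ± 0.42, unadjusted p = 0.031, and counts of 1502, 1271, 3317, 1351 and 3382 in untreated tumors 1 to 5 and 1153, 279, 1725, 1830.3 and 615 in anti-PD-1 tumors 1 to 5. Untreated tumors 3 and 5 were high, and anti-PD-1 tumors 2 and 5 were low. Without untreated tumor 1, the list median was 0.018.

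Dendritic cell genes had 13 of 15 members above 0 and a median of 0.13 (0.089 to 0.21 when each tumor was left out, 0.12 to 0.54 under other settings). Ccl22, a chemokine of mature dendritic cells, had normalized counts of 21.3, 27.5, 27.3, 30.9 and 29.4 in untreated tumors 1 to 5 and 18.0, 61.6, 44.0, 66.3 and 44.2 in anti-PD-1 tumors 1 to 5. Treated tumors 2 to 5 lay above all untreated tumors and tumor 1 below all of them (0.24 ± 0.10, unadjusted p = 0.0252). Xcr1, the receptor that marks cross-presenting dendritic cells, had a difference of 0.22 ± 0.10, unadjusted p = 0.0453, Il12b of 0.15 ± 0.096, Itgax of 0.13 ± 0.11 and Fscn1, an actin-bundling protein, of -0.13 ± 0.10. Neutrophil genes were divided, with 6 of 14 above 0, and included Csf3r (0.15 ± 0.11), the receptor for G-CSF, the chemokine receptor Cxcr2 (0.11 ± 0.094), the calgranulin S100a8 (-0.030 ± 0.13) and Mmp8 (-0.13 ± 0.064). B-cell genes had 7 of 10 members above 0. Cd79a (0.078 ± 0.11) and Cd79b (-0.025 ± 0.089) of the B-cell receptor, Ms4a1 (0.15 ± 0.11), which encodes CD20, and Spib (0.15 ± 0.087) had 44.0 or fewer normalized counts in each tumor. Plasma cell genes were Jchain (0.25 ± 0.20), highest in anti-PD-1 tumor 2 with 108 normalized counts, Mzb1 (0.047 ± 0.083) and Txndc5 (-0.088 ± 0.058).

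Transcripts of 10 cytokines were divided evenly, with 5 above 0 and 5 below. Besides Ifng, these included Tnf (0.067 ± 0.067), Il1b (0.15 ± 0.16), Ccl2 (-0.077 ± 0.22), Cxcl2 (-0.028 ± 0.19), Csf3 (0.11 ± 0.071), Il6 (-0.094 ± 0.062), Il10 (-0.0062 ± 0.073) and Tgfb1 (-0.0094 ± 0.082, above 0 with quantile normalization). Csf3 and Il6, which encode G-CSF and interleukin 6, had at most 3.86 normalized counts in any tumor. Of 4 genes of chitinases and chitinase-like proteins, which chitin is given to occupy, 1 lay above 0 and 3 below. Chil1 had normalized counts of 10.01, 12.6, 7.91, 5.15 and 34.7 in untreated tumors 1 to 5 and 3.85, 79.6, 17.8, 13.8 and 10.7 in anti-PD-1 tumors 1 to 5, and anti-PD-1 tumor 2 stood above the rest (0.14 ± 0.25, below 0 without this tumor). Chil3 was at 0 reads in untreated tumors 1 and 2 and anti-PD-1 tumors 1, 2 and 5 (-0.031 ± 0.094), while Chid1 was at 505 or more in every tumor (-0.11 ± 0.057).

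**Figure D3:**
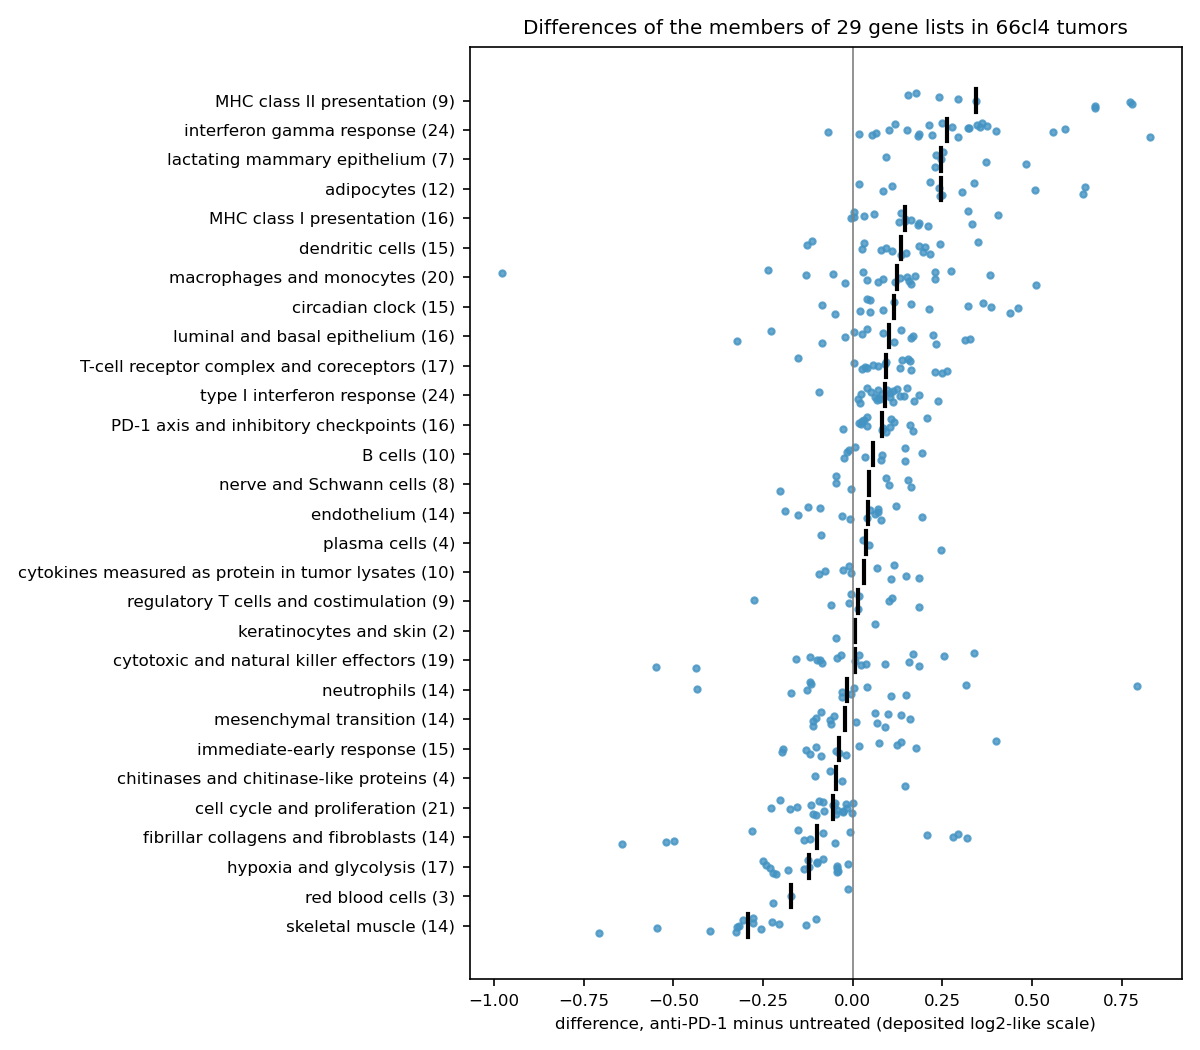
VST differences, anti-PD-1 minus untreated, of every measured member (points) of 29 gene lists in 66cl4 tumors, with the list median as a black bar and the number of members in parentheses. Medians range from -0.29 for skeletal muscle to 0.34 for MHC class II, and none of the members passed an adjusted p of 0.05; the medians of 16 of the 29 lists changed sign in another setting or without single tumors, among them those of the cell cycle, red blood cells and skeletal muscle.

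Genes of the cell cycle, of epithelium and of mesenchymal transition had VST differences between -0.32 and 0.33. All 21 genes of the cell cycle had a VST difference below 0, though small, with a median of -0.056 that became 0.014 without anti-PD-1 tumor 4 and 0.0084 without untreated tumor 3. Mki67, the Ki-67 antigen of dividing cells, had normalized counts of 2858, 2228, 2923, 1766 and 1556 in untreated tumors 1 to 5 and 2014, 1700.2, 2421, 1894 and 2261 in anti-PD-1 tumors 1 to 5. Its difference was -0.10 ± 0.17, that of the topoisomerase Top2a -0.046 ± 0.16 and that of the mitotic kinase Plk1 -0.23 ± 0.16. Krt8 (-0.085 ± 0.13) and Vim (0.089 ± 0.12) overlapped widely. The basal keratins Krt5 (0.33 ± 0.27) and Krt14 (0.12 ± 0.20), Epcam (0.23 ± 0.30) and the basal transcription factor Trp63 (-0.23 ± 0.12) belong to the epithelial list, in which 12 of 16 differences were above 0. Anti-PD-1 tumors 2 and 3 had the highest Krt5, with 36.0 and 48.7 normalized counts. Genes of mesenchymal transition had 7 of 14 above 0, among them Zeb2 (0.16 ± 0.095), Snai1 (-0.061 ± 0.092) and Cdh2 (-0.11 ± 0.083).

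Collagen genes were highest in a few tumors of both groups. Of 14 listed genes of collagens and fibroblasts, 4 had a difference above 0 and 10 below, with a median of -0.10 that was -0.020 without untreated tumor 5. Col1a1, the main chain of type I collagen, had normalized counts of 1499, 1214, 4967, 1395 and 3541 in untreated tumors 1 to 5 and 1083, 2587, 1578, 876 and 1063 in anti-PD-1 tumors 1 to 5. Untreated tumors 3 and 5 and anti-PD-1 tumor 2 were high, and the VST difference was -0.64 ± 0.37. Col6a1 had 0.32 ± 0.29 and Pdgfra, a fibroblast receptor, -0.048 ± 0.19. For 14 endothelial genes, 8 differences lay above 0 and 6 below. The angiopoietin receptor Tek had the smallest p (0.19 ± 0.069, unadjusted p = 0.0104), Emcn had -0.19 ± 0.095, Pecam1 0.079 ± 0.088 and Cdh5 -0.0076 ± 0.10. Hypoxia and glycolysis genes were below 0 for 17 of 17 members, with a median of -0.12 (-0.23 to -0.037 when each tumor was left out) and none at an unadjusted p under 0.05. The list mean per tumor was 10.78, 10.35, 10.39, 10.25 and 10.69 in untreated tumors 1 to 5 and 10.56, 9.98, 10.47, 10.83 and 9.99 in anti-PD-1 tumors 1 to 5. Anti-PD-1 tumors 2 and 5 were the lowest of all 10 and tumor 4 the highest. Examples were Aldoa (-0.23 ± 0.16) of glycolysis, the glucose transporter Slc2a1 (-0.21 ± 0.21), the angiogenic factor Vegfa (-0.22 ± 0.20) and the carbonic anhydrase Car9 (-0.045 ± 0.31).

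Transcripts of neighbouring tissue marked single tumors in both groups. Acta1, the actin of skeletal muscle, had normalized counts of 2.50, 6.88, 1278, 56.7 and 5.34 in untreated tumors 1 to 5 and 8.99, 2.84, 204, 0 and 1.19 in anti-PD-1 tumors 1 to 5, and the muscle creatine kinase Ckm had 0, 5.73, 329.7, 11.6 and 5.34 in untreated tumors 1 to 5 and 3.85, 2.84, 59.4, 2.50 and 3.58 in anti-PD-1 tumors 1 to 5. Tumor 3 stood apart in each group. All 14 muscle genes, with Pvalb at -0.23 ± 0.22 having the smallest p, had a VST difference below 0 with a median of -0.29, which became 0.093 without untreated tumor 3. Summed over the list, normalized counts ranged from 123 to 4646 in untreated and from 110.0 to 886 in anti-PD-1 tumors. The 12 adipocyte genes had differences above 0 with a median of 0.25 (0.045 to 0.39 when each tumor was left out), and summed counts from 469 to 932 in untreated and from 476 to 4328 in anti-PD-1 tumors. Fabp4, a fatty acid carrier of adipocytes, had normalized counts of 193, 273, 149, 193 and 269.6 in untreated tumors 1 to 5 and 334, 1367, 326, 184 and 276 in anti-PD-1 tumors 1 to 5. The hormone gene Adipoq (0.24 ± 0.31) and the lipid droplet gene Plin1 (0.25 ± 0.33) were high in anti-PD-1 tumors 2 and 3, as was the milk protein gene Csn2 in tumor 3 (44.0 normalized counts, 0.23 ± 0.19). All 7 genes of lactating epithelium, among them Btn1a1 (0.25 ± 0.16), lay above 0, with a median of 0.25 that was 0.10 without anti-PD-1 tumor 3. Under other settings this median ran from 0.092 to 1.18. That of adipocyte genes ran from 0.20 to 0.62 and that of muscle genes from -0.997 to -0.13.

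The immune lists were also described without the tumors that held most of these transcripts. Leaving out untreated tumor 3 and anti-PD-1 tumors 2 and 3, an alternative chosen after seeing the data, gave list medians of 0.17 for interferon gamma, 0.27 for MHC class II, 0.12 for MHC class I, 0.070 for the T-cell receptor complex, 0.0081 for type I interferon and 0.098 for the PD-1 axis. The same tumors left out gave 0.046 for dendritic cells, 0.17 for macrophages, -0.15 for neutrophils, -0.063 for cytotoxic effectors, 0.010 for regulatory T-cells, 0.022 for B-cells, -0.028 for plasma cells, 0.016 for lactating epithelium and -0.080 for adipocytes. With these tumors left out, 1 gene passed the adjusted threshold, the amino acid transporter Slc38a4 (named after its values were seen), at a VST difference of -0.62 and an adjusted p in limma of 0.0445. Over all 10 tumors the VST difference of Slc38a4 was -0.39 ± 0.11. Its normalized counts were 21.3, 35.5, 24.6, 51.5 and 44.0 in untreated tumors 1 to 5 and 5.13, 36.9, 20.2, 6.25 and 7.16 in anti-PD-1 tumors 1 to 5. The left-out anti-PD-1 tumors 2 and 3 thus had the highest counts of their group, and tumor 2 alone reached into the untreated range. The pass therefore rests on the choice of tumors. The part of neighbouring tissue in the other differences was not tested. Red blood cell genes, whose median of -0.17 was 0.23 without anti-PD-1 tumor 5 and also above 0 without anti-PD-1 tumor 3, untreated tumor 1 or untreated tumor 5, with Hba-a1 from 568 to 13362 normalized counts over the 10 tumors (-0.22 ± 0.72, counts shared with its duplicate being uncertain), the skin genes Krt10 (-0.046 ± 0.064) and Sbsn (0.061 ± 0.061), and the Schwann cell gene Pmp22 (0.10 ± 0.056) had overlapping groups.

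Genes of the circadian clock had 13 of 15 differences above 0 and a median of 0.11, and 4 of 15 stood at an unadjusted p under 0.05, all in the higher direction, against 2.8% of all genes. Per1, a repressor of the clock, had normalized counts of 345, 375, 167, 276 and 431 in untreated tumors 1 to 5 and 691, 730.3, 259, 399 and 395 in anti-PD-1 tumors 1 to 5. Anti-PD-1 tumors 1 and 2 were the highest of all 10, and the VST difference was 0.46 ± 0.19, unadjusted p = 0.0263. The clock output factor Dbp had normalized counts of 149, 139.8, 197, 273 and 167 in untreated tumors 1 to 5 and 223, 266, 141, 484 and 402 in anti-PD-1 tumors 1 to 5 (0.44 ± 0.20, unadjusted p = 0.0417). Bmal1, which peaks in the opposite phase of the day, had -0.050 ± 0.13 and Cry1 -0.086 ± 0.090. The labels give no hour of tumor collection, so that its part was not tested. Of 15 immediate-early genes, 6 lay above 0 and 9 below. Klf4 (0.40 ± 0.16, unadjusted p = 0.0215) was the 1 member at an unadjusted p under 0.05. This makes 6.67% of the list, near the 5.36% of all genes. Untreated tumor 3 was low in Klf4, with a deposited value of 9.10 against 9.49 to 9.61 in the other untreated tumors. Fos (-0.089 ± 0.29), Egr1 (-0.020 ± 0.14) and Junb (-0.20 ± 0.11), which respond to handling of tissue within minutes, had overlapping groups.

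The same antibody was next compared with its effect in 4T1 tumors, the other model, with 5 anti-PD-1 and 4 untreated tumors and none shared, 1 untreated 4T1 tumor with degraded RNA being absent. The test of the difference between the models found 0 genes (0%) at an adjusted p of 0.05 in limma, with the smallest adjusted p at 0.286, and 1041 genes (7.27%) at an unadjusted p under 0.05. The number at an adjusted p of 0.05 was 331 with array weights and 86 without 4T1 anti-PD-1 tumor 2. The smallest p belonged to Col6a6, a collagen VI chain. In 66cl4 tumors it had normalized counts of 30.04, 24.1, 42.2, 24.5 and 26.7 in untreated tumors 1 to 5 and 16.7, 3.79, 17.8, 21.3 and 9.55 in anti-PD-1 tumors 1 to 5 without overlap, a VST difference of -0.31 ± 0.098, against 0.59 ± 0.16 in 4T1 tumors. Zfp113 had 0.15 ± 0.062 in 66cl4 and -0.31 ± 0.081 in 4T1 tumors, and Cd2, an adhesion molecule of T-cells, 0.0047 ± 0.081 (below 0 with quantile normalization and limma-voom) against 0.87 ± 0.19. For Adgre1 the values in 66cl4 and 4T1 tumors lay side by side (0.51 ± 0.12 and 0.58 ± 0.39), as they did for Cxcl9 (0.83 ± 0.37 and 0.78 ± 0.62). The interval of the difference between the models ran from -0.90 to 0.77 for Adgre1 and from -1.44 to 1.55 for Cxcl9. The median VST difference of the T-cell receptor list was 0.091 in 66cl4 and 0.58 in 4T1, and that of interferon gamma genes 0.26 and 0.23. For hypoxia genes it was -0.12 and -0.59, for adipocyte genes 0.25 and 1.69, for lactating epithelium 0.25 and 0.94 and for B-cells 0.057 and 0.71. All members of the adipocyte, lactating epithelium and B-cell lists lay above 0 in 4T1, against 49.9% of all genes. The 4T1 medians come from the main setting only, and the part of neighbouring tissue in them was not tested.

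Within the 66cl4 model, anti-PD-1 was also given on top of chitin, the polysaccharide used to block chitinase-like proteins, so that 5 chitin + anti-PD-1 tumors and 5 chitin tumors provide the same contrast in other tumors. The test of the difference between both settings found 0 genes (0%) at an adjusted p of 0.05 in limma and 714 genes (4.99%) at an unadjusted p under 0.05. The smallest adjusted p was 0.0585, for Zfp345, which was lower with anti-PD-1 alone (-0.23 ± 0.046) and had 0.18 ± 0.046 on top of chitin. Per1 had 0.46 ± 0.19 and -0.82 ± 0.19, and the desmosomal protein Ppl 0.25 ± 0.13 and -0.56 ± 0.13. Adgre1 had 0.13 ± 0.12 on top of chitin and Cxcl9 -0.24 ± 0.37. The interferon gamma list had 23 of 24 members above 0 without chitin and 10 of 24 on top of it, with medians of 0.26 and -0.015. For MHC class I the numbers were 15 and 2 of 16, with medians of 0.15 and -0.058, and for MHC class II 9 and 1 of 9, with medians of 0.34 and -0.16. None of these members passed the test of the difference. Lists of other tissue also differed. Skeletal muscle had 0 of 14 members above 0 without chitin and 14 on top of it, with medians of -0.29 and 0.99. Red blood cells had 0 and 3 of 3, with medians of -0.17 and 1.06, and adipocytes 12 of 12 in both, with medians of 0.25 and 0.49. Over all genes, 51.1% and 50.5% lay above 0. The part of such tissue in the immune lists was not tested. The adjusted p of Zfp345 was below the threshold without the trend, with median centring of each tumor, and without 66cl4 chitin tumor 4.

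**Figure D4:**
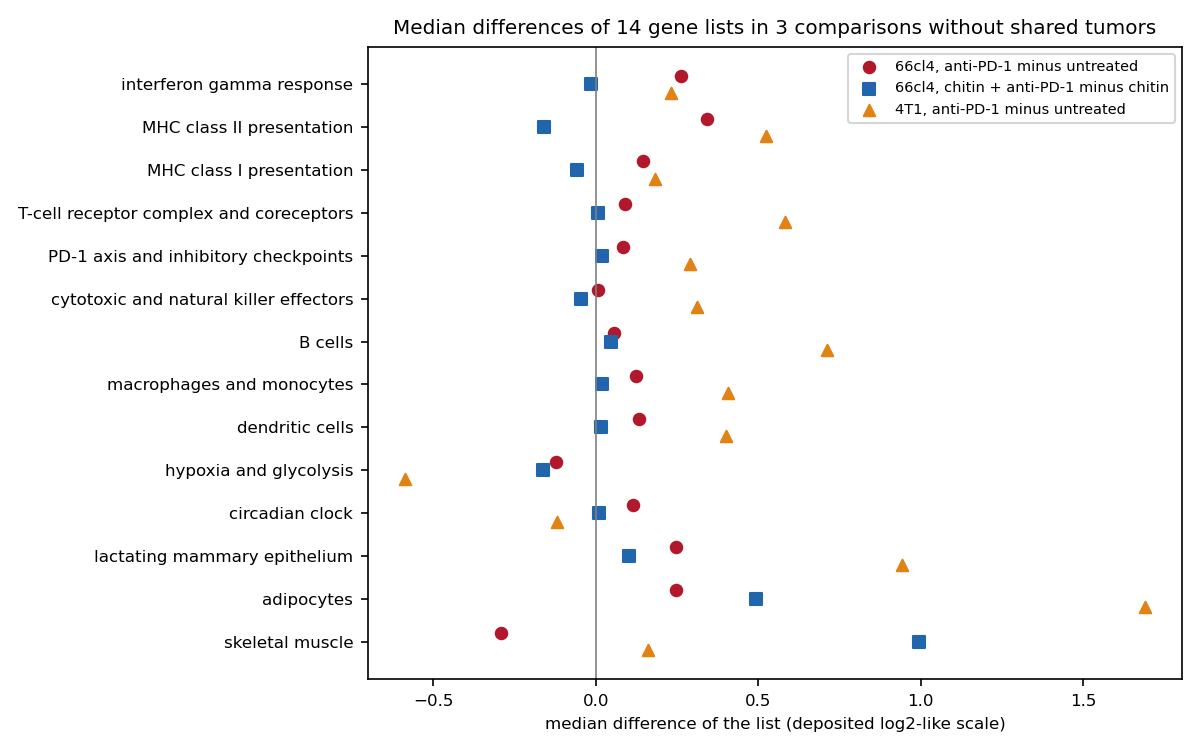
Median VST difference of 14 gene lists for anti-PD-1 in 66cl4 tumors (red circles), for anti-PD-1 on top of chitin in 66cl4 tumors (blue squares) and for anti-PD-1 in 4T1 tumors (orange triangles), 3 comparisons that share no tumor. Interferon gamma and MHC medians lie above 0 in both comparisons without chitin and below 0 on top of chitin. The skeletal muscle median is 0.99 on top of chitin, and the adipocyte median is largest in 4T1 tumors. No list was tested. For anti-PD-1 against untreated in 66cl4 tumors, the cytotoxic, T-cell receptor, B-cell, adipocyte and skeletal muscle medians changed sign in another setting or without single tumors. Medians of the other comparisons come from the main setting only.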

How the data were processed

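RNA sequencing of whole 66cl4 tumors (5 untreated, 5 anti-PD-1) was analyzed, with groups taken from the labels. The authors mapped reads from stranded libraries to mm10 with HISAT2, counted them per gene with strand taken into account, kept genes above a minimum of 10 reads in a share of the tumors, and deposited values of the DESeq2 variance stabilizing transformation, which are on a log2-like scale (VST). Inverting the transformation gave whole recovered reads for 100% of values (tolerance 0.001 reads). Depth per tumor was 5732583 to 8408913 recovered reads on listed genes, and 124 to 268 genes had 0 reads.

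Deposited log2-like values were fitted with limma 3.58.1 (R 4.3.3) over the 20 66cl4 tumors of 4 treatment groups (lmFit, contrasts.fit, eBayes with trend, 16 residual degrees of freedom), with Benjamini-Hochberg adjustment over 14318 genes and a threshold of 0.05. Differences between models and with chitin were interaction terms, the former over 39 tumors. The fit was tested on simulated data. Named genes were the 10 of smallest p per direction with at least 20 mean reads, core members of the lists, the smallest p per list and direction, and the 3 smallest p per interaction; Tapbp, H2-D1, Ms4a7, Gzmc to Gzmg, Slc38a4, Fgl2, Serpina3g, Rpl22 and Rps23 were chosen after their values were seen. Members and lists (383 of 443 listed symbols found; no mitochondrially encoded gene was in the table) were chosen with earlier results of these data known, so that lists are given by counts and medians without a test. A few genes that the rule names are not reported here. Alternatives changed the filter, trend, samples, scaling, weights, block, read depth and left-out tumor; leaving out the 3 tumors with the most muscle or fat transcripts was added after seeing the data.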

Additional observations from a re-analysis of the deposited data

Results flagged for a closer look

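In 35 of 356 groups of 5 tumors examined (9.83%), the highest or lowest tumor stood apart from the rest, its gap to the nearest tumor exceeding 0.71 of the range of the group. For independent and normally distributed values, this cut would flag about 1 group in 20. Many groups here are related genes or lists that hold them, and some genes lie at the read floor. The share of flagged groups therefore cannot be set against that rate. Values are deposited log2-like values, where 6.05 stands for 0 reads, unless said otherwise.

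Anti-PD-1 tumor 1 was lower than the other tumors of its group in H2-Oa (6.25, others 6.44 to 6.48). Anti-PD-1 tumor 2 was higher than the other tumors of its group in Gbp2 (9.65, others 9.003 to 9.18), Fabp4 (10.55, others 8.24 to 8.84) and fibrillar collagens and fibroblasts (10.55, others 9.56 to 9.82). Anti-PD-1 tumor 3 was higher than the other tumors of its group in Acta1 (8.34, others 6.05 to 6.58), Ckm (7.37, others 6.33 to 6.40), Bst2 (10.37, others 9.62 to 9.73), Cdh2 (9.93, others 9.72 to 9.78), Pvalb (6.77, all others 6.05) and skeletal muscle (7.30, others 6.35 to 6.45). Anti-PD-1 tumor 4 was higher than the other tumors of its group in Ptpro (8.34, others 8.08 to 8.14), and lower in Cd8b1 (6.25, others 6.68 to 6.77). Anti-PD-1 tumor 5 was lower than the other tumors of its group in Sap30 (8.34, others 8.52 to 8.58) and Mmp8 (6.05, others 6.29 to 6.33). Untreated tumor 1 was higher than the other tumors of its group in Havcr2 (7.53, others 7.18 to 7.27), and lower in Mzb1 (6.05, others 6.29 to 6.38) and macrophages and monocytes (10.43, others 10.75 to 10.84). Untreated tumor 3 was higher than the other tumors of its group in Ifng (6.22, all others 6.05), Ccl2 (10.08, others 8.95 to 9.22), Acta1 (10.46, others 6.33 to 7.34), Ckm (8.82, others 6.05 to 6.65), Thy1 (8.94, others 8.23 to 8.38), Cdh2 (10.30, others 9.71 to 9.88), Pvalb (7.29, others 6.05 to 6.26) and skeletal muscle (8.54, others 6.38 to 6.69), and lower in Ms4a1 (6.05, others 6.24 to 6.26), Klf4 (9.10, others 9.49 to 9.61) and Pdgfra (10.50, others 11.39 to 11.59). Untreated tumor 4 was higher than the other tumors of its group in Cxcl9 (7.97, others 7.22 to 7.42) and Spib (6.58, others 6.26 to 6.34), and lower in Ppl (8.996, others 9.42 to 9.55). Untreated tumor 5 was lower than the other tumors of its group in Tnf (6.69, others 6.85 to 6.90), Gzmd (8.43, others 9.86 to 10.44) and Gzmf (8.25, others 9.78 to 10.33). Anti-PD-1 tumor 2 also had the most recovered reads of its group, 7745140 against 5755757 to 6245839. The muscle genes Acta1, Ckm and Pvalb and the whole muscle list thus set tumor 3 apart in each group, and the low Gzmd and Gzmf of untreated tumor 5 belong to the same tumor as its low Gzmb and Prf1.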

How the results depend on the processing

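No gene passed an adjusted p of 0.05 for anti-PD-1 against untreated under any setting or when each tumor was left out (0 to 0 genes), except for 1 gene (Slc38a4, difference -0.62) without the 3 tumors with the most muscle or fat transcripts. Genes at an unadjusted p under 0.05 numbered 767, 186 with both models in 1 fit, and 569 to 1105 when each tumor was left out. The difference between models gave 0 genes, 331 with array weights, and 0 to 86 when each tumor was left out, with 86 without 4T1 anti-PD-1 tumor 2. The difference with and without chitin gave 0 genes, 1 without the trend, 1 with median centring, and 0 to 1 when each tumor was left out, with 1 without 66cl4 chitin tumor 4. The cause was not tested. The difference in mean reads between groups ran from -431130.9 to 383932.5 when each tumor was left out, and it was above 0 without untreated tumor 3 or anti-PD-1 tumor 1.

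Of 147 named genes, 112 kept the sign of their difference in every setting run. Signs turned for Tigit (-0.00031), Ccl2 (0.018), Psmb10 (0.018) and Tgfb1 (0.0098) with array weights, for Ctla4 (0.050), Isg15 (-0.0047) and Cd2 (-0.043) with limma-voom, for Cd2 (-0.0074) and Tgfb1 (0.0047) with quantile normalization, and for Isg15 (-0.0087) and Psmb10 (0.0067) at equal read depth. When each tumor was left out, signs turned for Tigit (-0.060 to 0.14), Havcr2 (-0.0046 to 0.17), Ctla4 (-0.074 to 0.049), Nkg7 (-0.019 to 0.077), Foxp3 (-0.036 to 0.065), Isg15 (-0.065 to 0.17), Cd163 (-0.11 to 0.070), Itgam (-0.041 to 0.18), S100a8 (-0.12 to 0.090), Chil1 (-0.041 to 0.25), Chil3 (-0.094 to 0.011), Ccl2 (-0.23 to 0.11), Cxcl2 (-0.16 to 0.098), Top2a (-0.14 to 0.034), Car9 (-0.33 to 0.17), Acta1 (-1.11 to 0.051), Ckm (-0.53 to 0.16), Adipoq (-0.012 to 0.41), Hba-a1 (-0.77 to 0.30), Cd2 (-0.045 to 0.076), Psmb10 (-0.071 to 0.064), Cd79b (-0.082 to 0.026), Krt10 (-0.083 to 0.0057), Cry1 (-0.14 to 0.00082), Icos (-0.11 to 0.013), Mzb1 (-0.010 to 0.072), Il10 (-0.060 to 0.040), Tgfb1 (-0.068 to 0.042), Snai1 (-0.14 to 0.035), Pdgfra (-0.24 to 0.098), Cdh5 (-0.059 to 0.038), Plin1 (-0.058 to 0.40), Fos (-0.26 to 0.20), Egr1 (-0.11 to 0.11) and Bmal1 (-0.18 to 0.044). Of 30 lists, 14 kept the sign of their median. The size of medians also depended on the setting. Apart from left-out tumors, it ran from 0.039 to 0.21 for the PD-1 axis and from 0.11 to 0.27 for the circadian clock. With the tumor number as a replicate block, 0 genes passed for anti-PD-1 against untreated (868 at an unadjusted p under 0.05), 0 for the difference between models and 0 for that with and without chitin. Same-numbered tumors of both groups deviated together in 4 of 5 pairs, with correlations of 0.446, 0.295, 0.539, 0.281 and -0.093. In these 4 pairs the same-numbered untreated tumor was also the best match of the anti-PD-1 tumor. The labels do not say what a tumor number stands for, and what same-numbered tumors share was not tested. The p-values of the main fit, which used the groups only, take no account of it. Depth limits genes with a few reads per tumor, such as Ifng, Csf3 and Il6.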

Other observations

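Genes encoding proteins of the cytosolic ribosome, a list drawn up after the values had been seen, had a VST difference below 0 for 82 of 83 members, with a median of -0.14, against 51.1% of all genes above 0. The median stayed between -0.17 and -0.11 when each tumor was left out. The mean deposited value of the list was 11.96, 11.91, 11.999, 11.96 and 11.99 in untreated tumors 1 to 5 and 11.95, 11.75, 11.92, 11.77 and 11.75 in anti-PD-1 tumors 1 to 5. Anti-PD-1 tumors 2, 4 and 5 lay below all untreated tumors, whereas tumors 1 and 3 lay within their range. Rpl22 had normalized counts of 2871, 2758, 3134, 2988 and 3092 in untreated tumors 1 to 5 and 2852, 2544, 2652, 2533 and 2428 in anti-PD-1 tumors 1 to 5, a VST difference of -0.18 ± 0.054. Rps23 had 6402, 6064, 6797, 6519.8 and 6404 in untreated tumors 1 to 5 and 6055, 5101, 5919, 5526 and 5398 in anti-PD-1 tumors 1 to 5, a VST difference of -0.20 ± 0.063. None of these genes passed the adjusted threshold, and several have near-identical processed copies in the genome that could share their reads.

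Among genes with larger differences, also chosen after their values were seen, Fgl2, which encodes a secreted fibrinogen-like protein of immune cells, had normalized counts of 190.2, 239.6, 178, 263 and 153 in untreated tumors 1 to 5 and 277, 605, 336, 433 and 365 in anti-PD-1 tumors 1 to 5. The groups did not overlap, and the VST difference was 0.69 ± 0.26. Serpina3g, a serine protease inhibitor gene, had 36.3, 63.0, 44.8, 108 and 30.7 in untreated tumors 1 to 5 and 101, 219.8, 172, 155 and 91.9 in anti-PD-1 tumors 1 to 5. Untreated tumor 4 reached into the treated range, and the VST difference was 0.71 ± 0.32. In both genes anti-PD-1 tumor 2 was the highest of the 10 tumors, as it was for Gbp2. Serpina3g belongs to a family of closely similar genes, so that its counts are uncertain.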
